A study of Mus musculus with 4 samples.

Results

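CTCF is a zinc finger protein that binds a long DNA motif, holds cohesin-driven chromatin loops at their anchors and insulates neighbouring regulatory domains from each other. Most of its sites are occupied in many cell types, and cell types can differ in how strongly a shared site is bound. Plasmablasts are the dividing, antibody-secreting descendants of activated B cells. The sites described here are those that both cell types list as bound by CTCF, but that stand much higher in the order of B cell sites than in the order of plasmablast sites.

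CTCF-bound DNA had been collected by chromatin immunoprecipitation and sequenced from 2 cell types of C57BL/6 mice aged 6 weeks, with 1 CTCF library and 1 input library for each. Splenic B cells were the CD43- fraction isolated on magnetic beads. Plasmablasts were spleen cells sorted on surface CD138, taken on day 3 after a retro-orbital injection of 50 µg lipopolysaccharide, which the B cell mice are not labelled as having received. The labels name no genetic change in either group, and they do not say how many mice were pooled. Peak lists hold no measure of expression, so markers of the labelled cell types were not checked.

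Of 24186 sites on the 19 autosomes at which a B cell peak overlapped a plasmablast peak by at least 1 bp, 1928 met the rule. Each peak was ranked among these pairs by the score in its own list, as a percentile, and a member was a pair whose B cell percentile exceeded its plasmablast percentile by 30 points or more. Members were thus 7.97% of the pairs (exact 95% binomial interval 7.63 to 8.32%). The opposite difference of 30 points or more was seen at 2078 pairs (8.59%, interval 8.24 to 8.95%), and 20180 pairs remained in between. The pairing was unambiguous, since 0 B cell peaks overlapped more than 1 plasmablast peak and 0 plasmablast peaks overlapped more than 1 B cell peak.

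The scores are the authors' own values in an unstated unit, and the depth behind them is unknown. Per the labels, the B cell libraries were run on a Genome Analyzer II and the plasmablast libraries on a HiSeq instrument, so cell type and instrument cannot be told apart. Each cell type had a single CTCF library, so the spread between replicates is unknown and no p-value was computed. Intervals below are exact binomial intervals for percentages and order-statistic intervals for medians, all at 95%. They cover counting over sites only, and neighbouring sites of 1 library are not independent replicates. The peaks are on mm9 and the reference tables provided are on another build, GRCm38, so no gene was assigned to a site and no sequence was read.

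The members were sites of middle to high standing in B cells and of low to middle standing in plasmablasts. Their B cell scores ran from 63.9 to 355.7 with a median of 151.0, which is 1.43 times the median of all pairs (105.6). Plasmablast scores of the same sites ran from 1.8 to 36.5 with a median of 11.0, or 0.472 times the median of all pairs (23.3). In percentiles, the median member stood at 65.6 in B cells (quartiles 52.5 and 79.5) and at 23.6 in plasmablasts (quartiles 10.7 and 38.3). The members were chosen by these score percentiles, which are given as a description. The lowest B cell score that the rule admitted, 63.9, was already above the median of the whole B cell list (62.1). Of the members, 349 (18.1%) scored above the median of the whole plasmablast list.

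The top 10% of pairs by B cell score held 169 members (8.77% of members), and the bottom 10% by plasmablast score held 444 (23.0%). Any pair in both of these groups is a member by the rule, and 1 such site was found. The gap between the percentiles had a median of 37.7 points. It lay from 30 to under 40 points at 1157 members (60.01%), from 40 to under 50 at 468, from 50 to under 60 at 210, and at 60 or more at 93 (4.82%). As the gap is made from both ranks, the scores differ between these bands by construction: B cell scores had a median of 140.8 in the first of these bands and 191.7 in the last, and plasmablast scores had medians of 12.6 and 7.3.

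**Figure D1:**
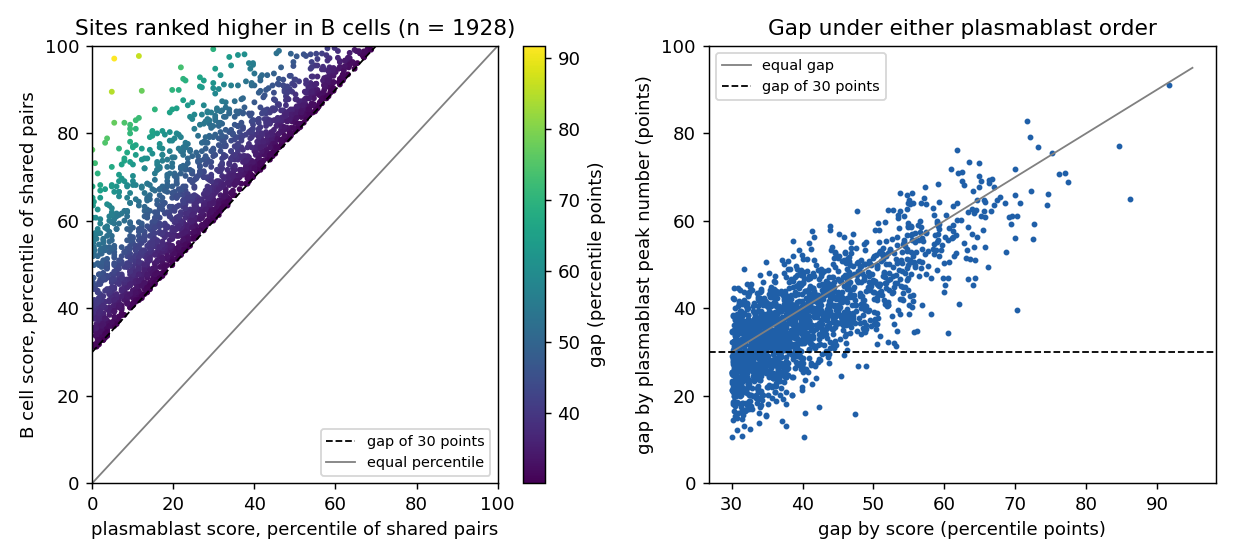
Left, each point is one of the 1928 sites ranked higher in B cells, placed by its plasmablast (x axis) and B cell (y axis) score percentile among all shared pairs and coloured by the gap in points. Right, the gap by score (x axis) against the gap when plasmablast peaks are ordered by the number in their name (y axis). All points lie above 0 on the right, and 1468 lie at or above the dashed line at 30 points.

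The site with the widest gap was on chromosome 1 at 34542734 to 34543038 (mm9, 1-based, B cell peak). Its B cell score of 280.6 stood at the 97.1st percentile and its plasmablast score of 5.9 at the 5.45th, a gap of 91.7 points. The peak midpoints were 21 bp apart, so both lists describe the same position. Next came a site on chromosome 18 at 82631442 to 82631746, where a B cell score of 287.1 met a plasmablast score of 7.5 and the gap was 86.2 points. This was followed by chromosome 9 at 22030301 to 22030605, with a B cell score of 235.3, a plasmablast score of 5.7 and a gap of 84.7 points. At that site the shift did not extend to the nearest shared neighbour, 70.2 kb away, whose gap was -55.2 points, that is, in the opposite direction.

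The other 7 of the 10 widest gaps ran from 73.2 to 77.5 points. They were on chromosomes 15, 2, 7, 16, 13, 11 and 4, so these 10 sites lay on 10 different chromosomes. On chromosome 7 at 149526543 to 149526847 a B cell peak with a score of 185.2 (percentile 76.2) met the lowest plasmablast score among the members, 1.8. On chromosome 4 at 55837004 to 55837308 a site with a B cell score of 264.0 and a plasmablast score of 10.5 was isolated, with its nearest shared neighbour 292.8 kb away. On chromosome 2 at 51004641 to 51004945, where the scores were 207.5 and 5.9, the nearest neighbour had a gap of -44.5 points. Of the 10 nearest neighbours of these sites, none was itself a member: their gaps ran from -55.2 to 18.9 points. Over all members, 11.05% of the nearest neighbours were members, so a count of 0 among 10 does not set these sites apart.

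Of the 5 members with the highest B cell scores, 4 stood above the median of the pairs in plasmablasts too. The highest, on chromosome 8 at 73988523 to 73988827, scored 355.7 in B cells (99.5th percentile) and 29.7 in plasmablasts (59.8th). A site on chromosome 19 at 45648342 to 45648646 scored 348.2 and 28.5. Another on chromosome 19, at 43698470 to 43698774, scored 335.3 and 35.8. The exception among these 5 came next: on chromosome 19 at 6552310 to 6552614, a B cell score of 332.5 stood beside a plasmablast score of 13.4 (29.9th percentile), a gap of 69.4 points. The last of them, on chromosome 9 at 57607229 to 57607533, scored 324.2 and 36.5, the latter being the highest plasmablast score of any member.

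The threshold cut through a continuous distribution. The 5 members just inside it had gaps of 30.03 to 30.07 points, with B cell scores of 66.7 to 89.8 and plasmablast scores of 5.0 to 8.0. The 5 pairs just outside had gaps of 29.99 to 30.00 points (all under 30), with B cell scores of 129.7 to 239.0 and plasmablast scores of 12.8 to 30.1.

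The peak names gave a second order for the plasmablast sites. Each name carries a number that counts within its chromosome, and in the B cell list the score never rose from one number to the next (0 of 35667 steps on autosomes). In the plasmablast list it rose at 14770 of 30216 steps (48.9%), and the rank correlation between number and score lay between -0.980 and -0.973 on single autosomes. The numbers of the plasmablast list therefore follow a related quantity that is not the deposited score. What it is was not given in the sources used here. Both orders come from the same library and are no replicate of each other.

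Under the order of the numbers the members kept their direction. They were chosen for wide gaps and the 2 plasmablast orders are closely correlated, so this was nearly fixed in advance. The same holds for the widest gaps staying past 30 points. With B cell scores ranked within chromosome and plasmablast peaks by number, all 1928 members still stood higher in B cells, with gaps of 10.5 to 91.1 points and a median of 36.4. At 1468 of them (76.1%, interval 74.2 to 78.0%) the gap was still 30 points or more. The same difference in this order was found at 7.35% of all pairs, and the opposite one at 8.25%. Ranking both scores within chromosome, without the numbers, left 1756 members (91.1%), with 8.05% of all pairs past 30 points. By number, 1269 members (65.8%) stood higher in plasmablasts than by score, with a median shift of 2.46 points (interval 2.10 to 2.79). Sites ranked higher in plasmablasts shifted the other way, by a median of -1.40 points (interval -1.66 to -1.18). Whether these shifts exceed those that come with choosing sites by 1 of 2 correlated orders was not tested. Of the members with gaps of 40 to under 50 points by score, 439 of 468 passed by number, and so did all 210 with gaps of 50 to under 60 points and all 93 with wider gaps.

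The largest disagreement among the 10 widest gaps was at the chromosome 18 site. Its plasmablast peak stood at the 32.1st percentile of its chromosome by number, and its gap came to 65.1 points. The chromosome 1 site hardly moved, with 91.1 points by number.

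Members were spread over all autosomes, with the smallest share on chromosome 6. There 63 of 1317 pairs were members (4.78%, interval 3.70 to 6.08%), against 7.97% of all pairs. Chromosome 14 was next with 54 of 886 (6.09%, interval 4.61 to 7.88%). The highest shares were on chromosomes 19 (77 of 806, 9.55%, interval 7.61 to 11.8%), 16 (9.40%) and 7 (9.38%). The whole interval lay below the percentage of all pairs on 2 autosomes, 6 and 14, and above it on 1, chromosome 7 (8.05 to 10.8%). The low share on chromosome 6 was accompanied by a high share of the opposite class, 10.9% against 8.59% overall. It depended on how ranks were formed: with scores ranked within each chromosome, which fixes the mean gap of every chromosome at 0, chromosome 6 had 8.20% of its pairs as members.

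**Figure D2:**
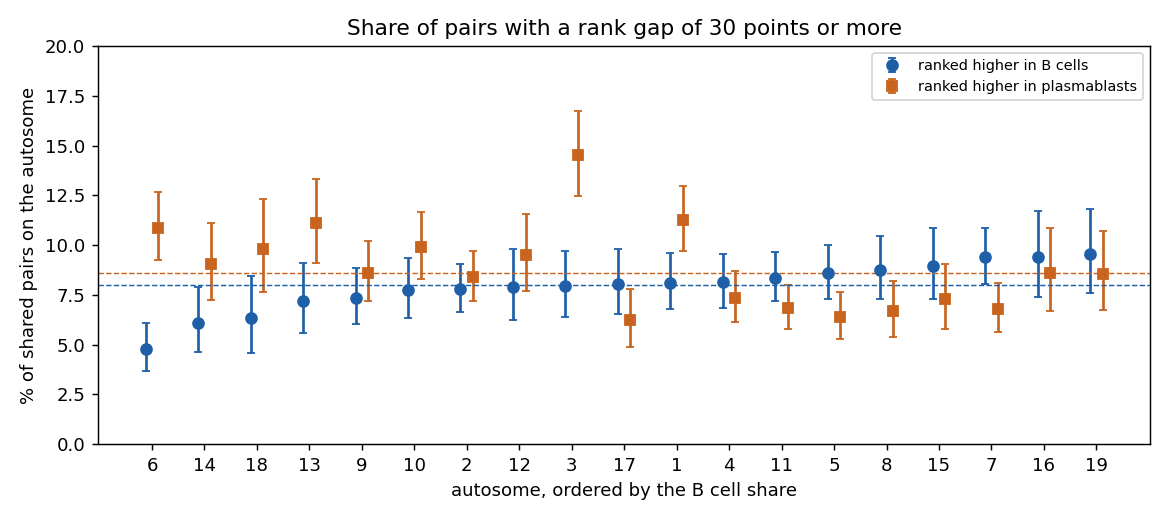
For each of the 19 autosomes (x axis), the percentage of its shared pairs ranked at least 30 points higher in B cells (circles) or in plasmablasts (squares), with exact 95% binomial intervals; dashed lines show the percentages over all pairs, 7.97% and 8.59%. Chromosome 6 has the smallest share of sites ranked higher in B cells (4.78%), and chromosome 3 the largest share of sites ranked higher in plasmablasts (14.5%).

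Within chromosomes the share of members varied more widely, over blocks that hold fewer pairs and so carry more counting error. Among 178 blocks of 10 Mb with at least 50 pairs, it had a median of 7.53% (quartiles 5.71 and 9.92%). The block on chromosome 6 from 140000001 to 150000000 held 1 member among 109 pairs (0.917%, interval 0.0232 to 5.01%) and 24 sites ranked higher in plasmablasts. Its median gap over all pairs was -10.7 points (interval -15.4 to -3.07), a measure that is not independent of the count of members. Another block with few members, on chromosome 6 from 30000001 to 40000000 (2 of 112 pairs), had a median gap of 1.02 points (interval -3.80 to 5.21). A block on chromosome 14 from 120000001 to 130000000 held 0 members among 51 pairs, which allows a share of up to 6.98% by the exact interval. The highest share, 16.7%, was reached in the first 10 Mb of chromosomes 16 (9 of 54 pairs) and 17 (13 of 78 pairs). The interval was 7.92 to 29.3% on chromosome 16, which includes the 7.97% of all pairs, and 9.18 to 26.8% on chromosome 17. In the chromosome 17 block 0 pairs were ranked higher in plasmablasts by 30 points, which allows a share of up to 4.62% by the exact interval, and the median gap was 9.73 points (interval 2.78 to 16.7). The whole interval was above the overall percentage in 7 blocks and below it in 7. How many blocks would be so by counting error alone was not computed. The blocks were laid after other values had been seen.

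On the scale of 1 Mb, members occurred in 964 of 1949 windows that held a shared pair. The window with most members was chromosome 15 from 76000001 to 77000000, where 11 of 39 pairs (28.2%, interval 15.001 to 44.9%) were ranked higher in B cells and 2 were ranked higher in plasmablasts. It also held 1 of the 10 widest gaps, at 76469996 to 76470300 (B cell score 236.2, plasmablast score 7.7). Its unshared peaks were 22 from B cells only and 5 from plasmablasts only; over all unshared peaks within 50 kb of a shared pair, 67.9% were from B cells. A window on chromosome 2 from 32000001 to 33000000 followed with 9 members of 47 pairs, and 19 B cell only peaks against 1 plasmablast only peak. There were 8 members in each of 3 windows. On chromosome 16 from 10000001 to 11000000 these were among 30 pairs, with 14 B cell only and 1 plasmablast only peaks. On chromosome 19 from 3000001 to 4000000 they were among 31 pairs, with 14 and 3 such peaks. On chromosome 19 from 45000001 to 46000000 they were among 34 pairs, and there the unshared peaks were nearly balanced, with 11 and 9. On chromosome 16 from 4000001 to 5000000 there were 7 members among 21 pairs (33.3%, interval 14.6 to 57.0%), with 23 B cell only and 3 plasmablast only peaks. These windows are the extremes of many, and their intervals do not allow for that choice. Of the 662 windows with at least 15 pairs, 105 held 0 members. With 7.97% of all pairs as members, some windows of this size hold none by counting alone, and how many was not computed. Among windows without a member, the one with most pairs was chromosome 1 from 173000001 to 174000000, with 32 pairs and 9 sites ranked higher in plasmablasts.

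B cell and plasmablast peaks lay closer together at members than at other shared sites. The midpoints were a median of 13 bp apart at members (interval 12 to 13), 16 bp at the remaining pairs (16 to 16) and 35.5 bp at sites ranked higher in plasmablasts (34 to 37). At 825 members (42.8%, interval 40.6 to 45.0%) they were at most 10 bp apart, against 32.3% of all other pairs (31.7 to 32.9%). Offsets over 50 bp were found at 78 members (4.05%, interval 3.21 to 5.02%) and at 12.4% of all other pairs (11.9 to 12.8%). No side was preferred: the plasmablast midpoint had the higher coordinate at 943 members, the lower at 938 and the same at 47.

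The closer midpoints went with the higher B cell score. Among pairs in the same quintile of the B cell order, where quintile 5 is the highest and quintile 1 held 0 members, the medians of members and other pairs lay closer together. They were 19 against 24 bp in quintile 2, 16 against 18 in quintile 3, 12 against 13 in quintile 4 and 10 against 10 in quintile 5. Compared within quintiles of the plasmablast order, members kept the smaller offset, for example 15 bp (interval 14 to 17) against 25 bp (24 to 26) in quintile 1. In each of the 4 quintiles of that order that held members, the intervals of members and other pairs did not overlap. Within such a quintile the rule picks members for high B cell percentiles. The median offset of other pairs was 31 bp in quintile 1 of the B cell order and 10 bp in quintile 5. The comparison within the plasmablast order therefore does not separate membership from the B cell score.

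**Figure D3:**
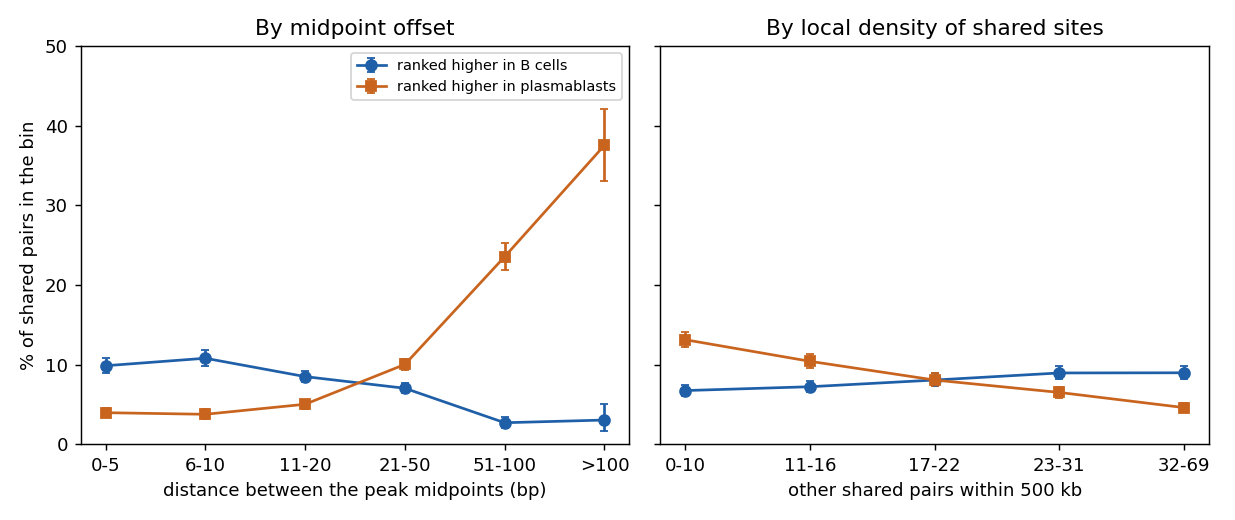
Percentage of shared pairs ranked at least 30 points higher in B cells (circles) or in plasmablasts (squares), left by the distance in bp between the midpoints of the B cell and plasmablast peaks and right by the number of other shared pairs within 500 kb, with exact 95% binomial intervals. Sites ranked higher in B cells go from 9.86% of pairs at 0 to 5 bp to 2.70% at 51 to 100 bp, and from 6.74% in the sparsest to 8.97% in the densest quintile.

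Members lay in somewhat denser stretches of CTCF sites. A member had a median of 21 other shared pairs within 500 kb (interval 20 to 21), against 19 at all other pairs (19 to 19). The median was 19 at the remaining pairs (19 to 20), whose interval meets that of members, and 15 at sites ranked higher in plasmablasts (14 to 15). In the sparsest quintile of pairs, with 0 to 10 others in that distance, 6.74% were members (interval 6.06 to 7.46%), and in the densest, with 32 to 69, 8.97% (8.18 to 9.81%). The opposite class changed more, from 13.1% (12.2 to 14.1%) to 4.60% (4.03 to 5.22%). Within the B cell order there was no steady difference. The medians were 19, 19, 21 and 23 at members and 17, 19, 20 and 24 at other pairs in quintiles 2 to 5, with overlapping intervals in each. Within the plasmablast order members had the higher medians, with 19, 21, 23 and 25 at members and 17, 18, 19 and 19 at other pairs in quintiles 1 to 4. There the rule picks members for high B cell percentiles, so this does not separate membership from the B cell score.

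The distance to the nearest shared pair depended on which order was held alike. In quintile 5 of the B cell order, the nearest shared pair was a median of 12856 bp away at the 468 members (interval 11262 to 14413) and 10107 bp away at other pairs (9693 to 10579). In quintiles 2, 3 and 4 of that order the medians were 15242, 13857 and 12739 bp at members and 15789, 13122 and 11583 bp at other pairs, with overlapping intervals. In the plasmablast order members stood nearer to their neighbours, at 13555 bp (12433 to 15795) against 18138 bp (17192 to 18913) in quintile 1 and 12532 bp (10923 to 13818) against 16187 bp (15498 to 16980) in quintile 2. Within a quintile of 1 order the rule picks members by the other order. Spacing at other pairs was lower at high scores, from 20343 to 10107 bp over the B cell quintiles and from 18138 to 10734 bp over the plasmablast quintiles. These contrasts therefore do not separate membership from the scores. Over all members, 158 (8.20%, interval 7.01 to 9.51%) had a shared neighbour within 2 kb, close to the 7.97% of all other pairs (7.62 to 8.33%). A spacing of more than 50 kb was found at 221 members (11.5%, interval 10.1 to 13.0%), against 15.7% of all other pairs (15.2 to 16.2%).

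Peaks listed in B cells only were more often found near members. Within 50 kb, 1287 of the 1928 members (66.8%, interval 64.6 to 68.9%) had such a peak, against 60.3% of all other pairs (59.6 to 60.9%) and 55.1% of sites ranked higher in plasmablasts (52.9 to 57.3%). These shares were not compared at like local density or like B cell score, in both of which the classes differ. Plasmablast only peaks were near 39.4% of members (37.2 to 41.6%) and 37.4% of all other pairs (36.8 to 38.1%), and these intervals overlap. The makeup of the surrounding unshared peaks was nevertheless about the same. Of the 1172 unshared peaks within 50 kb whose nearest shared pair was a member, 801 were from B cells (68.3%, interval 65.6 to 71.0%), and for all other pairs this was 67.9% (67.0 to 68.7%). Around sites ranked higher in plasmablasts it was 65.0% (62.3 to 67.6%). The small difference between members and other pairs, 0.488 points, turned in sign under 5 of the alternative settings.

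Nearest shared neighbours had a gap above 0 somewhat more often at members than at the remaining pairs. This was so at 1134 members (58.8%, interval 56.6 to 61.0%), against 51.8% of the remaining pairs (51.2 to 52.5%). Members were chosen for wide gaps and their neighbours were not, so smaller gaps at neighbours follow from the rule. The nearest other shared pair of a member had a median gap of 3.64 points (interval 2.78 to 4.71). For the remaining pairs this was 0.765 points (0.463 to 1.01), and for sites ranked higher in plasmablasts it was -3.12 points (-3.92 to -2.40). A neighbour was itself a member at 213 members (11.05%, interval 9.68 to 12.5%), against 7.85% at the remaining pairs (7.48 to 8.23%) and the 7.97% of all pairs. At 142 members (7.37%) the neighbour belonged to the opposite class. Neighbours shared both libraries with the site, and no replicate pair of libraries was at hand.

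The median neighbour gap of members was highest at short range, but the intervals at all distances overlap. Where 2 members are each other's nearest neighbour, both are counted. For the 39 members with a neighbour within 1000 bp, the neighbour's median gap was 14.2 points (interval 0.693 to 21.8), 6 of those neighbours were members and 0 belonged to the opposite class, which allows a share of up to 9.03% by the exact interval. For the 119 members with a neighbour at 1000 to 2000 bp the median was 7.94 points (3.57 to 13.9), and 20 of the neighbours (16.8%, interval 10.6 to 24.8%) were members. It was 3.65 points at 2000 to 5000 bp, 4.40 points (2.96 to 6.50) at 5000 to 10000 bp and 3.05 points (1.10 to 4.46) at 10000 to 50000 bp, so there was no steady fall over these distances. At more than 50000 bp the median was 1.33 points and its interval included 0 (-1.51 to 4.10). Neighbours of the remaining pairs also went from higher to lower values, with 3.83 points (2.09 to 6.09) within 1000 bp and -1.72 points (-2.53 to -0.901) beyond 50000 bp. The difference between members and all other pairs was 3.69 points for neighbours within 10 kb and 2.88 points for those at 10 kb or more. The closest neighbour of any member was 628 bp away, farther than either peak is wide.

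**Figure D4:**
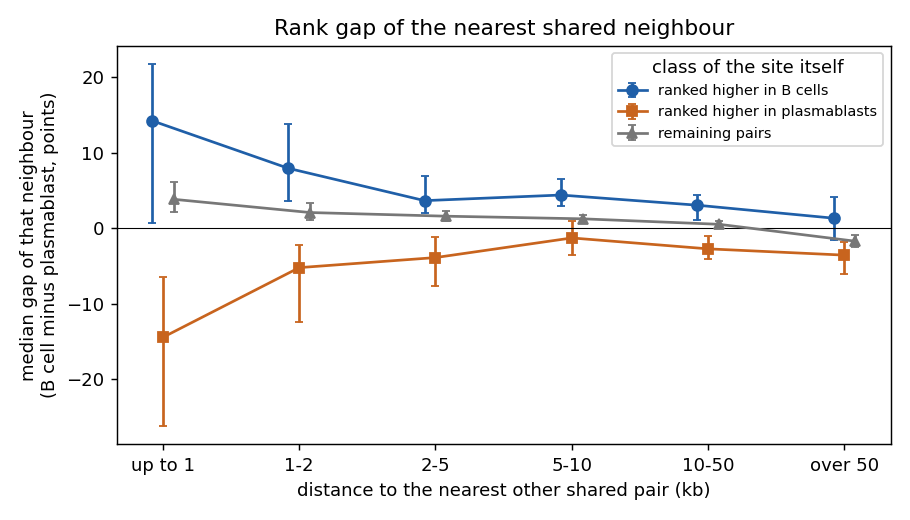
Median rank gap (B cell minus plasmablast percentile, in points) of the nearest other shared pair, by its distance in kb, for sites ranked higher in B cells (circles), in plasmablasts (squares) and remaining pairs (triangles), with order-statistic 95% intervals. Neighbours of sites ranked higher in B cells go from 14.2 points within 1 kb to 1.33 points beyond 50 kb.

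The median neighbour gap was higher in each wider band of the members' own gap, with overlapping intervals. It was 3.21 points (interval 2.05 to 4.25) for gaps of 30 to under 40 points, 3.90 (1.60 to 6.04) for 40 to under 50, 4.02 (1.11 to 7.55) for 50 to under 60 and 7.86 (4.14 to 13.3) for the 93 members with gaps of 60 or more. Midpoint offsets were 13 to 14 bp and local densities 20 to 24 sites in all 4 bands of the gap. Of the 59 unshared peaks nearest to the members with the widest gaps, 54.2% (interval 40.8 to 67.3%) were from B cells. That was the lowest value of the 4 bands, and its interval overlaps that of the first band (67.9%, 64.3 to 71.4%).

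In the order of shared sites along the chromosome, 1563 members had no member next to them. The other 365 (18.9%, interval 17.2 to 20.8%) formed 172 runs of 2 or more adjacent members. Members were 7.97% of all pairs, and at such a share most would stand alone if placed without regard to each other. The share in runs under such placement was not computed. Sites ranked higher in plasmablasts, which were 8.59% of all pairs, were more often in runs of their own kind, 498 of 2078 (24.0%, interval 22.1 to 25.9%). Runs of members mostly had 2 sites (156 runs); 12 had 3 sites, 3 had 4 and 1 had 5.

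The run of 5 members was on chromosome 19 from 10815047 to 11015182, a stretch of 200.1 kb. Along it the B cell scores were 70.4, 150.0, 200.1, 241.7 and 215.8, and the plasmablast scores 3.9, 11.2, 8.4, 20.1 and 26.2. Both scores thus tended to be lower at its start, and the gap was widest at the middle site (65.7 points, at 10954672 to 10954976). By plasmablast peak number all 5 gaps stayed above 30 points, from 30.7 to 60.9.

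Runs of 4 members were on chromosomes 12, 8 and 11. The chromosome 12 run extended over 521.9 kb from 12427647 to 12949546, with B cell scores of 254.7, 113.0, 94.5 and 124.1 against plasmablast scores of 28.8, 6.9, 4.6 and 7.5. On chromosome 8 from 8985474 to 9349089 the B cell scores were 220.4, 127.8, 201.9 and 84.3 and the plasmablast scores 14.6, 11.9, 18.3 and 6.1. The chromosome 11 run, from 60372842 to 60693328, was the most even, with B cell scores of 153.7 to 239.0, plasmablast scores of 15.1 to 26.2 and gaps of 35.9, 36.5, 32.1 and 31.5 points. The next run, 3 sites within 55.6 kb on chromosome 5 from 124888241 to 124943837, ended in the site with the widest gap of these 5 runs. That site scored 198.2 in B cells and 6.9 in plasmablasts, a gap of 70.6 points. Its companions at the start of the run, whose B cell peaks began at 124888241 and 124890137, had gaps of 33.0 and 44.8 points. By plasmablast peak number 1 site in each of the chromosome 8, 11 and 5 runs fell below 30 points (20.1, 28.4 and 29.4).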

How the data were processed

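The authors deposited 1 peak list per CTCF library, as BED lines with a name and a score (36381 in B cells, 305 bp wide; 31086 in plasmablasts, 179 bp wide except 1). The unit of the deposited score is not stated. Bowtie, HOMER and mm9 are named per the submitters' processing notes; their versions and peak thresholds are not given there. Positions were read as BED, with 1 added to each start.

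Peaks overlapping by at least 1 bp were paired, scores were ranked over the 24186 autosomal pairs with ties averaged, and members had a gap of at least 30 percentile points. Percentages have Clopper-Pearson intervals. Scores of the lists were never compared as values. Named sites are the 10 widest gaps, the 5 highest B cell scores among members, 5 pairs on each side of the threshold and the 5 longest runs, with ties broken by the summed gap (the last of these runs is 1 of 12 with 3 members). Members, lists and comparisons were chosen with earlier results of these data known. Gene and sequence comparisons were not run, as no mm9 annotation or genome was used here, and input libraries were not analysed here. The code for pairing and ranking was checked on simulated data, made by shifting the B cell list and adding small noise to its ranks. That check does not show how often noise alone would give a gap of 30 points. Python 3.11.15, numpy 2.4.6, pandas 2.3.3, scipy 1.17.1 and matplotlib 3.10.9 were used.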

Additional observations from a re-analysis of the deposited data

How the results depend on the processing

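Of 71 alternative values, 34 kept their sign and stayed within the half-width of the interval of the members' own value, 32 moved beyond it and 5 turned in sign, whatever their size. The members' share of pairs (7.97%) became 16.8% and 3.19% with gaps of 20 and 40 points and 14.5% with percentiles over all listed peaks. It was 13.8% with sites called anew among pairs above the median of both lists, and 7.35% by plasmablast peak number. In the same order, the chromosome 6 share (4.78%) became 14.2%, 1.97%, 11.5%, 13.0% and 6.91%, and it was 8.20% with ranks within chromosome. The share of members in runs (18.9%) became 35.6%, 11.2%, 31.0% and 31.0% under the first 4 of these. The setting with pairs above both medians called 1679 of 12169 pairs, yet only 349 of the members described above passed the plasmablast median. Its percentiles must therefore have been formed anew within those pairs. Its shares do not show how common the members described above are among them. The median offset of members minus that of other pairs (-4 bp) became -5 bp with midpoints within 100 bp and with gaps of 20 points, -2 bp with percentiles over all listed peaks, and -1 and -9 bp within quintiles of the B cell and plasmablast order. The density difference (2 sites) was 1 site under both other overlap rules, gaps of 20 points, percentiles over all peaks, pairs above both medians, ranks within chromosome, peak numbers, quintiles of the B cell order and a window of 100 kb. It was 3 within quintiles of the plasmablast order and 4 at 1000 kb. The neighbour gap difference (3.21 points) was 4.19 with gaps of 40 points and stayed positive throughout. The B cell only difference (0.488 points) turned to -0.0410 with gaps of 20 points, -3.19 among pairs above both medians, -0.660 with ranks within chromosome, -4.26 within 10 kb and -0.921 within quintiles of the plasmablast order. The cause was not tested for any of these. Ranks within chromosome, peak numbers and neighbours beyond 1 kb were added after seeing the data. Motif and gene alternatives were not run, since no mm9 sequence or annotation was used. No paired analysis was possible because the result comes from no test and each cell type has 1 CTCF library. Depth is unknown, so a low score is not shown to be weak binding.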
